A study of Xenopus laevis with 8 samples.

Results

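The forkhead transcription factor genes of *Xenopus laevis* were followed through the late blastula and gastrula of embryos that lacked maternal *wnt11b*. They were taken as all gene identifiers that begin with *fox*, a letter from a to s and a digit, which gave 74 of the 49086 genes in the table. *X. laevis* is allotetraploid, so most genes have an .L and an .S copy with an identifier each, called homeologs. The 74 identifiers held 28 homeolog pairs and 18 identifiers outside such a pair. Among the 18 were *foxj2.L* and *foxj2-b*, which share a gene name and were counted singly. Of the 74, 61 passed the filter on low counts and were tested, among 25448 genes tested in all. The other 13 averaged under 1 CPM, a count scaled to a common library size, at both stages and are described by their counts only.

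Forkhead proteins bind DNA through a winged-helix domain, and several of them can engage closed chromatin ahead of other factors. In the frog embryo, some are loaded into the egg as mRNA, such as Foxh1, the DNA-binding partner of Smad proteins in the Nodal response, and Foxi2, which acts in the prospective ectoderm. Others are switched on in the zygote and mark germ layers or the midline, such as Foxa proteins in endoderm and notochord, Foxc proteins in paraxial mesoderm and Foxd4l1 proteins in early neural ectoderm.

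M/Z embryos came from eggs of *wnt11b* homozygous mutant females, and +/Z embryos came from eggs of wild-type females. Mutant sperm was used in both crosses, so +/Z embryos were heterozygous, all embryos carried at least the paternal mutant allele, and the mother differed together with the genotype. The allele is a small frameshift deletion in the first exon of *wnt11b.L*, made in the inbred J-strain and traced to a single founder female. RNA was sequenced at stage 10.5, during gastrulation, and at stage 9, a late blastula stage, from 2 pools of 3 whole embryos in each of the 4 groups. The females and clutches behind the pools are not named. The p-values measure the spread between pools. Where pools shared a mother, that spread leaves out differences between mothers. In whole embryos, fewer cells of a type and less RNA per cell cannot be told apart. Stage 9 falls after zygotic transcription begins, so a transcript present at stage 9 need not have come from the egg.

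Library totals ranged from 24720921 to 37265579 counts. The first principal component of all tested genes, with 54.6% of the variance, placed the M/Z libraries at 107 and 41.4 and the +/Z libraries at 146 and 138 at stage 10.5, with all stage 9 libraries between -120 and -89.7. M/Z replicate 2 of stage 10.5 therefore stood apart, towards stage 9, and many of the values it moved are given with and without it. *wnt11b.L* itself had 55.2 and 40.3 CPM in M/Z and 72.0 and 60.5 CPM in +/Z at stage 10.5, and 32.2 and 37.4 CPM in M/Z and 42.0 and 30.1 CPM in +/Z at stage 9, and since the deletion leaves most of the transcript countable, this level does not check the genotype. Germ layer markers of ectoderm, mesoderm and endoderm were present in every library. The summed CPM of the markers of differentiated tissue, *hba1*, *alb*, *myh6* and *ins*, was between 3.20 and 4.05 at stage 10.5 and between 0.0382 and 0.258 at stage 9.

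The 74 members were sorted by their mean CPM over the 4 libraries of each stage, both genotypes weighing alike. Members with at least 1 CPM at stage 9 were split by their ratio of stage 10.5 to stage 9 into 14 in a falling class (ratio under 0.5), 20 held (0.5 to 2) and 14 rising (over 2). Those under 1 CPM at stage 9 were split into 5 induced by stage 10.5 and 21 low at both stages. These classes are descriptions without a test. CPM is not corrected for transcript length, so levels of different genes are not compared. Among all genes tested, 14.3% were in the falling class, 53.5% held, 7.77% rising, 6.53% induced and 17.9% low.

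**Figure D1:**
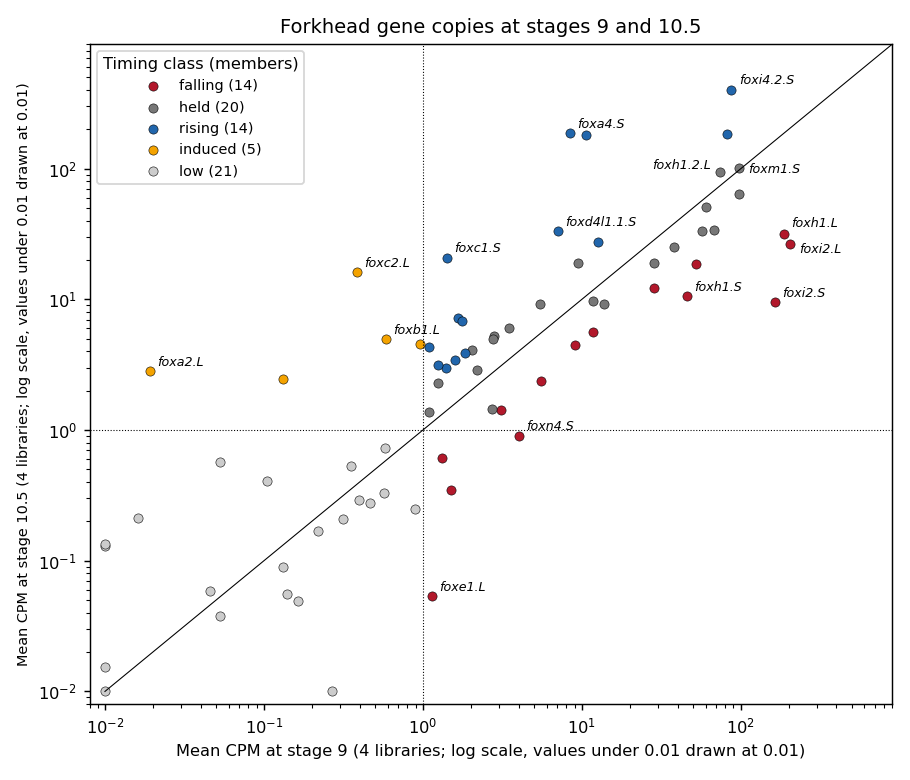
Each point is 1 of the forkhead gene copies, with its mean CPM over the 4 stage 9 libraries on the horizontal axis and over the 4 stage 10.5 libraries on the vertical axis, both on a log scale, coloured by timing class. Dotted lines mark 1 CPM, the solid line marks equal levels, and the induced members, among them *foxa2.L* and *foxc2.L*, lie left of the vertical dotted line and above the horizontal one.

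The falling class held both copies of *foxi2*, *foxh1* and *foxj3*, with *foxe1.L*, *foxf1.L*, *foxj1.2.L*, *foxm1.L*, *foxn4.S*, *foxo3.L*, *foxo6.S* and *foxp1.S*. The rising class held both copies of *foxa1*, *foxa4*, *foxc1*, *foxd4l1.1* and *foxi4.2*, with *foxd3.S*, *foxi4.1.S*, *foxn1.L* and *foxn4.L*. The induced class was *foxa2.L*, *foxb1.L*, *foxc2.L*, *foxi4.1.L* and *foxj1.L*. Near the limit of 1 CPM at stage 9 were *foxj1.L* at 0.953 CPM and *foxd2.L* at 0.890 CPM below it, and *foxn1.L* at 1.09 CPM above it. Of the rising class, both copies of *foxa1* and *foxc1*, *foxd3.S*, *foxi4.1.S*, *foxn1.L* and *foxn4.L* averaged under 2 CPM at stage 9. A limit of 2 CPM would place them in the induced class. When the classes were set from the M/Z and from the +/Z libraries separately, 26 of the 74 members changed class between the genotypes. The share over all genes is not given, so this count cannot be read as particular to forkhead genes. *foxd3.S*, *foxd4l1.1.L* and *foxc1.L*, for example, were held in M/Z and rising in +/Z. Others, such as *foxi1.L*, *foxi4.2.L* and *foxj1.S*, went the other way, rising in M/Z and held in +/Z.

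By the stage test in *edgeR*, which compared stage 10.5 with stage 9 within a genotype, 27 of the 61 tested members passed an adjusted p of 0.05 in M/Z embryos, 16 higher and 11 lower at stage 10.5. The background over all genes tested was 32.3% called, with 16.7% higher and 15.6% lower, and the members' share was 44.3%. In +/Z embryos 41 members passed, 21 higher and 20 lower, a share of 67.2% against a background of 46.5% (23.3% higher and 23.2% lower). The median size of the stage difference among members was 1.06 on the log2 scale in M/Z and 1.64 in +/Z embryos, against 0.62 in M/Z and 0.86 in +/Z embryos over all genes. Without M/Z replicate 1 or 2 of stage 9, 14 or 15 members passed in M/Z embryos, and without +/Z replicate 2 of stage 9, 25 passed in +/Z embryos.

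Between genotypes, 8 of the 61 members passed at stage 10.5, with M/Z above +/Z in 3 and below it in 5. That is 13.1% of the members, against a background of 13.1% over all genes (6.68% higher and 6.39% lower). At stage 9, 8 members passed as well, 2 higher and 6 lower, again 13.1%, against 11.9% of all genes (6.01% higher and 5.93% lower). Both shares were near the background. The median size of the difference was 0.88 on the log2 scale among members and 0.47 over all genes at stage 10.5, and 0.56 among members and 0.41 over all genes at stage 9. Replicates of a group also differed more among members. At stage 10.5 their median absolute log2 difference was 0.70 in M/Z and 0.54 in +/Z among members, and 0.37 in both over all genes. At stage 9 it was 0.32 in both among members, and 0.22 in M/Z and 0.23 in +/Z over all genes. Whether the genotype difference of members goes beyond this wider spread was not tested. *foxa4.S* was the 1 member called at both stages. With library totals in place of TMM factors, the median of all genes at stage 10.5 moved up by 0.20, and 8 members were higher and 4 lower.

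The calls between genotypes changed when single libraries were left out. A fit without 1 library leaves a single library in that group, here and below. Its p-values hold no spread within that group, so calls gained or lost in such fits are descriptions only. All 8 libraries share 1 estimate of the spread, so leaving out a library of 1 stage can change calls at the other. A stage 10.5 call lost without a stage 9 library therefore need not mean that its fold change moved. For *foxn2.L*, the stage 10.5 log2 fold change was 0.79 with all libraries and 0.80 without M/Z replicate 1 of stage 9. For the fits without a library and the other alternative fits, the share of all genes called is not given. Their counts of members therefore cannot be read as particular to forkhead genes. At stage 10.5, 23 members passed without M/Z replicate 1, 2 without M/Z replicate 2, 6 without +/Z replicate 1 and 3 without +/Z replicate 2 of that stage, and 2 without any 1 of the 4 stage 9 libraries. At stage 9, 1 passed without M/Z replicate 1, 0 without M/Z replicate 2, 0 without +/Z replicate 1 and 3 without +/Z replicate 2 of that stage. The fit with only the 4 libraries of a stage called 1 member at stage 10.5 and 21 at stage 9.

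The difference between the 2 genotype comparisons was called in 0 members in *edgeR* and in 0 in *DESeq2*, against a background of 0.0472% (12 genes). Of the 61 members, 16 had an unadjusted p under 0.05 in that test, as did 2844 of all 25448 genes tested. The smallest adjusted p of a member was 0.275, for *foxf1.L*. Without M/Z replicate 1 of stage 10.5, 13 members passed. With all libraries, no member is shown to differ in its genotype effect between the stages.

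**Figure D2:**
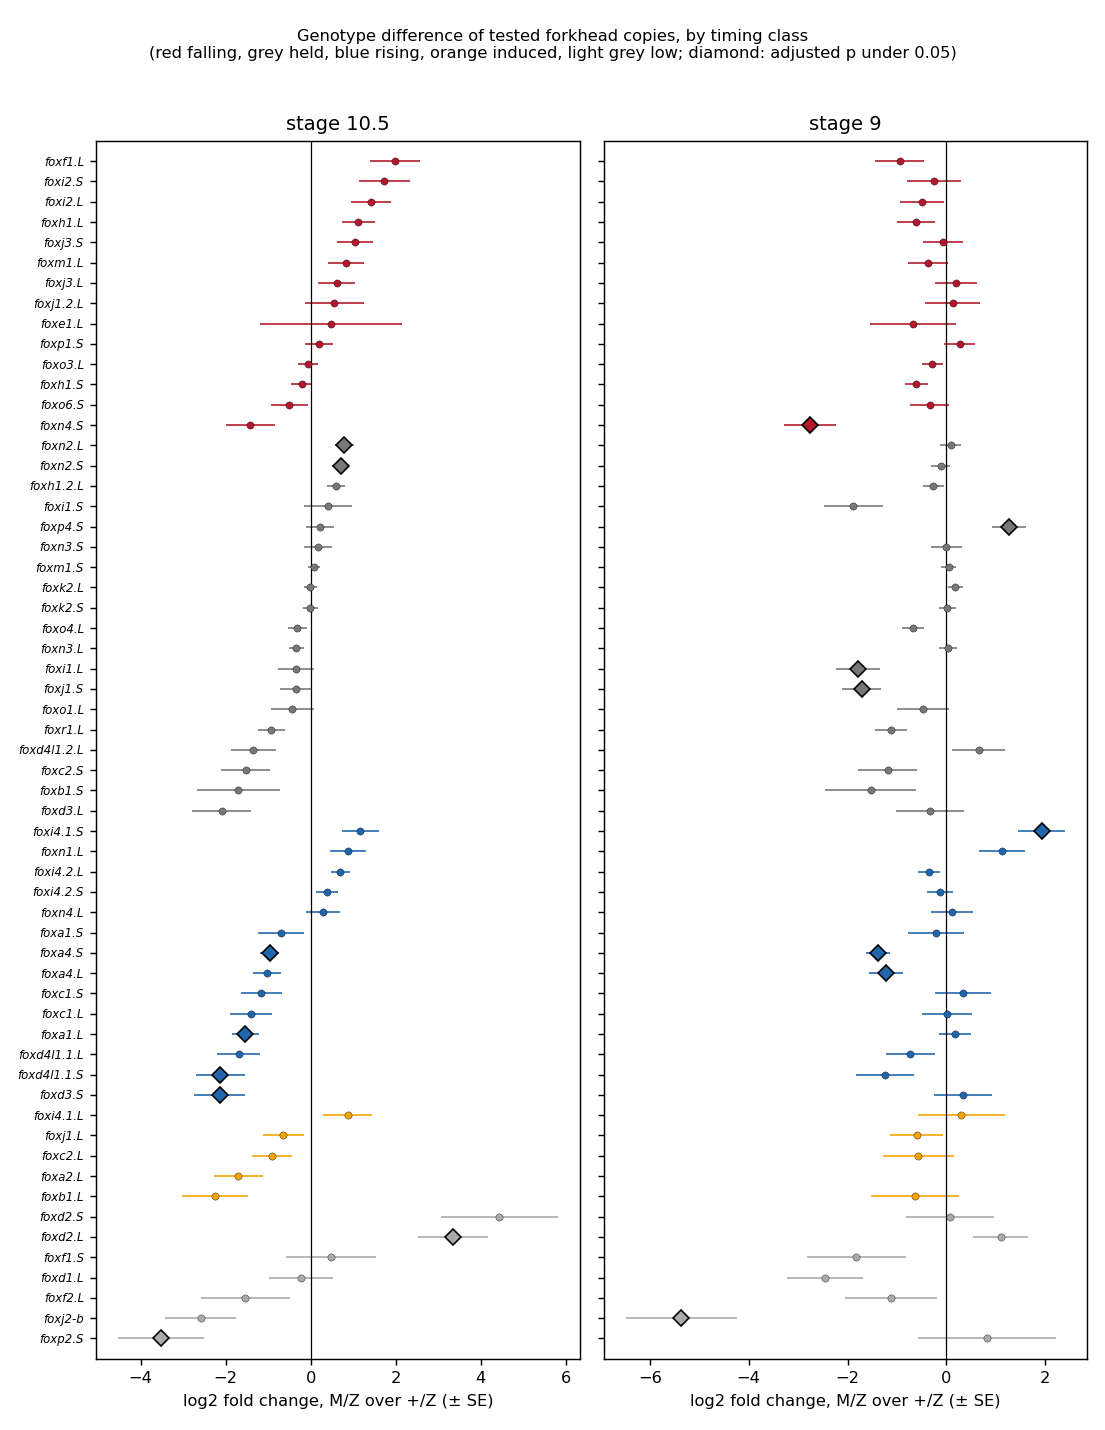
Log2 fold change of M/Z over +/Z with its standard error for tested forkhead copies at stage 10.5 (left) and stage 9 (right), grouped from top to bottom by timing class. Diamonds mark the 8 copies at each stage with an adjusted p under 0.05, and *foxa2.L* has no point at stage 9, where both groups had too few counts for a fold change.

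Among the Nodal cofactors, *foxh1.L* and *foxh1.S* fell by stage 10.5 in both genotypes, whereas *foxh1.2.L*, a second Foxh1-type gene of *Xenopus*, did not. *foxh1.L* had 28.5 and 57.8 CPM in M/Z and 27.7 and 11.9 CPM in +/Z at stage 10.5, and 157 and 138 CPM in M/Z and 247 and 204 CPM in +/Z at stage 9 (replicates 1 and 2 in this order, here and below). M/Z libraries were the lower ones at stage 9 and the higher ones at stage 10.5, without overlap. Its log2 fold change of M/Z over +/Z in *edgeR* was 1.12 ± 0.39 (SE) at stage 10.5, with an adjusted p of 0.0883, and -0.61 ± 0.38 at stage 9, with an adjusted p of 0.348. Neither passed. The stage 10.5 value was 0.53 without M/Z replicate 2, and without M/Z replicate 1 it was 1.54.

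*foxh1.S* had 8.01 and 11.5 CPM in M/Z and 9.55 and 13.0 CPM in +/Z at stage 10.5, and 36.0 and 36.6 CPM in M/Z and 59.4 and 51.1 CPM in +/Z at stage 9. The genotypes overlapped at the later stage and did not at the earlier one, and no genotype test passed (adjusted p = 0.605 and 0.134 for the later and the earlier stage, *edgeR*). *foxh1.2.L* had 123 and 103 CPM in M/Z and 80.7 and 68.2 CPM in +/Z at stage 10.5, and 61.5 and 72.3 CPM in M/Z and 95.5 and 65.5 CPM in +/Z at stage 9. It rose in M/Z embryos (log2 fold change 0.76 of stage 10.5 over stage 9, adjusted p = 0.0222, *edgeR*), while the value in +/Z embryos was -0.11 (adjusted p = 0.685). The rise in M/Z did not pass without M/Z replicate 1 of stage 10.5 (0.62, adjusted p = 0.113, *edgeR*). The genotype difference of *foxh1.2.L* at stage 10.5, 0.60 ± 0.21 on the log2 scale, did not pass (adjusted p = 0.0883, *edgeR*).

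A list of 14 genes of Nodal signalling and the Foxh1 response, among them Smads, Nodal ligands and *mix1*, was read beside these cofactors. Of its 24 tested copies, 7 were lower and 0 higher in M/Z than in +/Z embryos at stage 10.5, and 7 were lower and 0 higher at stage 9. Over all genes, 6.39% were lower and 6.68% higher at stage 10.5, and 5.93% lower and 6.01% higher at stage 9. The same background holds for the other gene lists below. Its summed CPM at stage 10.5 was between 1905 and 2577 in M/Z and between 2995 and 3165 in +/Z embryos.

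The Foxi genes, which act in the ectoderm and later in its ionocytes and placodes, divided by stage. Both copies of *foxi2* fell and both copies of *foxi4.2* rose in each genotype, *foxi4.2* being the gene also called *foxi1e*, which is needed for ectoderm formation in *Xenopus*. *foxi2.L* had 17.0 and 60.9 CPM in M/Z and 11.5 and 17.5 CPM in +/Z at stage 10.5, and 152 and 186 CPM in M/Z and 254 and 223 CPM in +/Z at stage 9. For *foxi2.S* the values were 4.50 and 24.7 CPM in M/Z and 3.40 and 5.40 CPM in +/Z at stage 10.5, and 136 and 162 CPM in M/Z and 180 and 176 CPM in +/Z at stage 9. In both copies M/Z replicate 2 was the high library at stage 10.5, and replicate 1 lay within the +/Z range.

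The stage test in *edgeR* gave log2 fold changes of -2.12 in M/Z and -4.04 in +/Z for *foxi2.L*, and of -3.36 in M/Z and -5.34 in +/Z for *foxi2.S*, all past the threshold. The genotype difference at stage 10.5 did not pass for *foxi2.L*, at 1.42 ± 0.47 on the log2 scale (adjusted p = 0.0741, *edgeR*). For *foxi2.S* it was 1.73 ± 0.60 (adjusted p = 0.0865). Both values rested on M/Z replicate 2, without which they were 0.24 and 0.05. They were 2.08 and 2.501 without M/Z replicate 1.

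*foxi4.2.L* had 200.2 and 258 CPM in M/Z and 143 and 139.7 CPM in +/Z at stage 10.5, and 64.8 and 80.2 CPM in M/Z and 111 and 73.0 CPM in +/Z at stage 9. *foxi4.2.S* had 506 and 407 CPM in M/Z and 345 and 353 CPM in +/Z at stage 10.5, and 74.0 and 92.6 CPM in M/Z and 119 and 64.0 CPM in +/Z at stage 9. At stage 10.5 both M/Z libraries lay above both +/Z libraries for each copy, and the stage 9 values overlapped. The stage 10.5 genotype differences were 0.70 ± 0.22 for *foxi4.2.L* (adjusted p = 0.0659) and 0.39 ± 0.26 for *foxi4.2.S* (adjusted p = 0.344, *edgeR*), neither past the threshold.

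*foxi1.L*, whose product specifies ionocytes, was lower in M/Z than in +/Z embryos at stage 9. It had 7.98 and 25.3 CPM in M/Z and 20.4 and 21.7 CPM in +/Z at stage 10.5, and 4.60 and 3.94 CPM in M/Z and 13.9 and 15.6 CPM in +/Z at stage 9. The stage 9 groups lay well apart, and the log2 fold change was -1.78 ± 0.44 (adjusted p = 0.0275, *edgeR*). The call was lost without any 1 of the 4 stage 9 libraries, with values between -1.90 and -1.68 over all 8 left out in turn. At stage 10.5 the M/Z replicates lay on either side of both +/Z libraries. That difference was -0.34 (adjusted p = 0.623, *edgeR*), was 0.27 without M/Z replicate 1, and was -1.39 without M/Z replicate 2.

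*foxi1.S* followed the same order, with 2.54 and 11.2 CPM in M/Z and 5.01 and 5.40 CPM in +/Z at stage 10.5, and 1.096 and 1.89 CPM in M/Z and 4.87 and 6.11 CPM in +/Z at stage 9. Its stage 9 difference of -1.88 ± 0.60 did not pass (adjusted p = 0.0705, *edgeR*). In M/Z embryos both *foxi1* copies rose by stage 10.5, with log2 fold changes of 1.96 for .L and 2.21 for .S, and in +/Z embryos the values were 0.52 and -0.08, not past the threshold. That rise was smaller without M/Z replicate 2 of stage 10.5, at 0.90 for *foxi1.L* (adjusted p = 0.0218) and 0.77 for *foxi1.S*, where it no longer passed (adjusted p = 0.182, *edgeR*).

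*foxi4.1.S*, expressed later in preplacodal ectoderm, was higher in M/Z than in +/Z embryos. It had 5.19 and 3.54 CPM in M/Z and 2.56 and 1.32 CPM in +/Z at stage 10.5, and 1.62 and 2.36 CPM in M/Z and 0.612 and 0.420 CPM in +/Z at stage 9. The groups were separate at both stages, and the *edgeR* test passed at stage 9 (1.93 ± 0.48 on the log2 scale, adjusted p = 0.0295) but not at stage 10.5 (1.16 ± 0.44, adjusted p = 0.107). Leaving out any 1 of the 4 stage 9 libraries ended the stage 9 call, with values between 1.64 and 2.24. Its homeolog *foxi4.1.L* was in the induced class, with 96 and 117 counts in the M/Z and 48 and 36 in the +/Z libraries at stage 10.5, and 11 and 1 counts in the M/Z and 5 and 2 in the +/Z libraries at stage 9. Neither genotype difference of *foxi4.1.L* passed.

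Of 18 tested copies on a list of other epidermal ectoderm genes, such as *tfap2a*, *grhl1* and *dlx3*, 1 was higher and 0 lower in M/Z than in +/Z embryos at stage 10.5, and 1 was higher and 0 lower at stage 9.

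**Figure D3:**
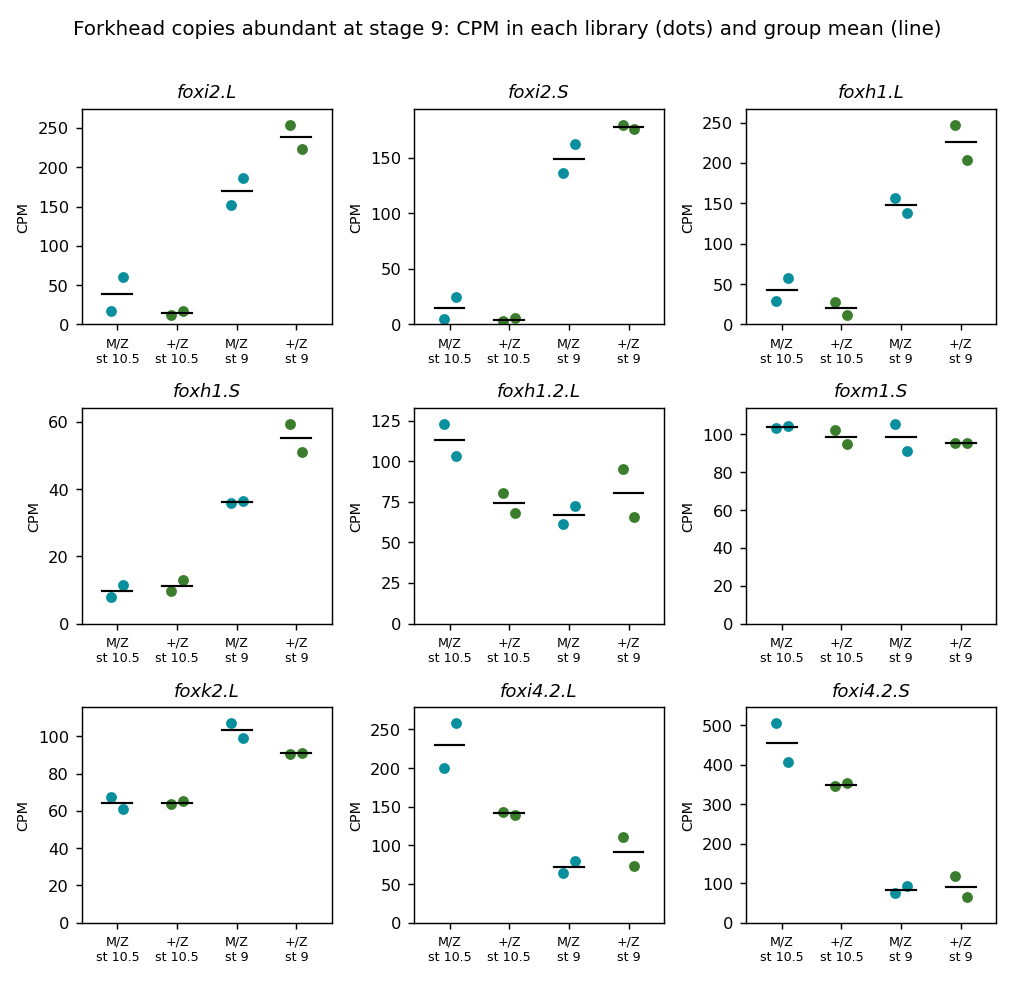
CPM in each library (dots) and the group mean (line) for 9 forkhead copies with high CPM at stage 9, with stage 10.5 left of stage 9 and M/Z in teal left of +/Z in green. Both copies of *foxi2* and of *foxh1*, but not *foxh1.2.L*, are lower at stage 10.5 than at stage 9. For *foxi2.L*, *foxi2.S* and *foxh1.L*, M/Z replicate 2, the right dot of its pair, is the highest library of stage 10.5. The CPM axes start at 0.

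All 5 Foxa copies, regulators of endoderm and of the notochord and floor plate, rose by stage 10.5 in both genotypes. Over all genes, 16.7% were called higher in M/Z and 23.3% in +/Z embryos. Without M/Z replicate 1 of stage 10.5, the rise in M/Z embryos no longer passed for *foxa1.L* (adjusted p = 0.132) and *foxa1.S* (adjusted p = 0.317, *edgeR*). *foxa4.L* had 165 and 74.1 CPM in M/Z and 255 and 232 CPM in +/Z at stage 10.5, and 6.36 and 6.44 CPM in M/Z and 17.8 and 12.0 CPM in +/Z at stage 9. *foxa4.S* had 148 and 107 CPM in M/Z and 247 and 247 CPM in +/Z at stage 10.5, and 5.29 and 4.08 CPM in M/Z and 14.5 and 9.93 CPM in +/Z at stage 9. Both copies of this midline gene were lower in M/Z embryos in every library at both stages.

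For *foxa4.S* the log2 fold change of M/Z over +/Z was -0.96 ± 0.23 at stage 10.5 (adjusted p = 0.0234) and -1.38 ± 0.24 at stage 9 (adjusted p = 0.0056, *edgeR*). For *foxa4.L* it was -1.02 ± 0.32 at stage 10.5, which did not pass (adjusted p = 0.0654), and -1.22 ± 0.34 at stage 9, which did (adjusted p = 0.0455, *edgeR*). Without M/Z replicate 2 of stage 10.5 the values at that stage were -0.73 for *foxa4.S* (adjusted p = 0.128) and -0.55 for *foxa4.L* (adjusted p = 0.232, *edgeR*). The stage 10.5 call for *foxa4.S* was also lost without +/Z replicate 2 (adjusted p = 0.0692, *edgeR*). At stage 9 the *foxa4.L* call was lost without any 1 of the 4 stage 9 libraries, at values between -1.48 and -0.89, and the *foxa4.S* call without M/Z replicate 2 or +/Z replicate 1, at values between -1.63 and -1.07. With the counts of both copies summed, *foxa4* passed at both stages.

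*foxa1.L*, an endodermal gene, had 4.04 and 3.33 CPM in M/Z and 12.3 and 9.03 CPM in +/Z at stage 10.5, and 1.53 and 2.03 CPM in M/Z and 1.42 and 1.72 CPM in +/Z at stage 9. The genotypes overlapped at stage 9 and lay apart at stage 10.5, where the log2 fold change was -1.53 ± 0.31 (adjusted p = 0.0126, *edgeR*), and -1.39 without M/Z replicate 2 (adjusted p = 0.0676). With both *foxa1* copies summed the difference was -1.11 and did not pass (adjusted p = 0.058, *edgeR*). *foxa1.S* did not pass, at -0.70 ± 0.53 (adjusted p = 0.408, *edgeR*), with 7.26 and 3.17 CPM in M/Z and 10.5 and 6.44 CPM in +/Z at stage 10.5.

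*foxa2.L*, listed as a single copy, was close to absent at stage 9, with 0 and 0 counts in the M/Z and 0 and 2 in the +/Z libraries. By stage 10.5 there were 62 and 28 counts in the M/Z and 133 and 78 in the +/Z libraries, or 1.79 and 0.863 CPM in M/Z and 5.08 and 3.54 CPM in +/Z. The M/Z libraries were the lower ones at stage 10.5, and the difference of -1.70 ± 0.58 did not pass (adjusted p = 0.0881, *edgeR*). It was -1.26 without M/Z replicate 2 and -2.31 without M/Z replicate 1, and neither passed.

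Beside these genes, 4 of the 14 tested copies on a list of other endodermal transcription factors, such as *sox17a*, *gata4* and *mixer*, were lower and 0 higher in M/Z than in +/Z embryos at stage 10.5, and 3 were lower and 0 higher at stage 9. On the list of organiser genes, 8 of 18 tested copies were lower and 0 higher at stage 10.5, and its summed CPM there was between 345 and 829 in M/Z and between 1532 and 1649 in +/Z embryos. How far these tissues take part in the *foxa* differences was not tested. The gene lists are not independent. The Nodal list shares *mix1* with the endodermal list, and *cer1*, *gsc* and *lhx1* with the organiser list. The organiser list shares *otx2* with the neural ectoderm list below.

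Of the 12 tested neural and placodal members, 5 rose and 2 fell by stage 10.5 in +/Z embryos, and 0 rose and 1 fell in M/Z embryos. The background was 23.3% higher and 23.2% lower in +/Z, and 16.7% higher and 15.6% lower in M/Z embryos. The 5 that rose were *foxb1.L*, *foxd3.S*, both copies of *foxd4l1.1* and *foxd4l1.2.L*. The difference in their stage change between genotypes is the same contrast as the one given above, which no member passed. In M/Z embryos the replicates of stage 10.5 were unlike. For *foxb1.L*, both copies of *foxd4l1.1* and *foxd4l1.2.L*, replicate 1 lay above both M/Z libraries of stage 9 and replicate 2 below both. For *foxd3.S*, replicate 1 lay between them and replicate 2 below both. The count of 0 that rose in M/Z embryos therefore averages over unlike replicates.

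*foxd4l1.1.S* encodes a repressor that keeps early neural ectoderm in an undifferentiated state. It had 21.0 and 3.73 CPM in M/Z and 58.7 and 49.5 CPM in +/Z at stage 10.5, and 3.89 and 4.50 CPM in M/Z and 9.77 and 10.04 CPM in +/Z at stage 9. M/Z libraries were below +/Z libraries at both stages, and M/Z replicate 2 of stage 10.5 was at the level of stage 9. The log2 fold change was -2.13 ± 0.58 at stage 10.5 (adjusted p = 0.0408) and -1.24 ± 0.59 at stage 9 (adjusted p = 0.215, *edgeR*). Without M/Z replicate 2 the stage 10.5 value was -1.35, and without M/Z replicate 1 it was -3.85. The call was lost without either +/Z library of stage 10.5 (-1.99 and -2.24) or any 1 of the 4 stage 9 libraries, and in *DESeq2* (adjusted p = 0.0504).

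*foxd4l1.1.L* had 21.0 and 5.15 CPM in M/Z and 48.1 and 36.5 CPM in +/Z at stage 10.5, and 8.29 and 10.6 CPM in M/Z and 16.6 and 14.7 CPM in +/Z at stage 9. The order of the libraries was that of the .S copy, and the stage 10.5 difference of -1.69 ± 0.50 did not pass (adjusted p = 0.0528, *edgeR*). For *foxd4l1.1.L* this was -1.001 without M/Z replicate 2 and -3.03 without M/Z replicate 1. The paralogue *foxd4l1.2.L* had 8.36 and 1.97 CPM in M/Z and 15.7 and 10.6 CPM in +/Z at stage 10.5, where M/Z was lower, and 5.51 and 7.77 CPM in M/Z and 3.96 and 4.47 CPM in +/Z at stage 9, where M/Z was higher. Neither difference passed, and the one at stage 10.5 was -0.64 without M/Z replicate 2 and -2.73 without M/Z replicate 1. *RSEM* divides reads that match several copies, so values of such near-identical genes are uncertain, and the untested *foxd4l1.L* had 3 or fewer counts in every group.

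*foxd3.S*, a gene of the organiser and later of neural crest, had 1.99 and 0.524 CPM in M/Z and 7.22 and 3.90 CPM in +/Z at stage 10.5, and 1.33 and 2.25 CPM in M/Z and 1.68 and 1.15 CPM in +/Z at stage 9. M/Z lay below +/Z embryos at stage 10.5 only, with a log2 fold change of -2.14 ± 0.60 (adjusted p = 0.0438, *edgeR*), and this was -1.47 without M/Z replicate 2 (adjusted p = 0.164). The call was also lost without +/Z replicate 1 of stage 10.5 (-1.62) or any 1 of the 4 stage 9 libraries. *foxd3.L* had 3.43 and 0.524 CPM in M/Z and 10.1 and 6.85 CPM in +/Z at stage 10.5. Its difference of -2.10 ± 0.70 did not pass (adjusted p = 0.0778, *edgeR*). For *foxd3.L* this was -1.30 without M/Z replicate 2 and -4.004 without M/Z replicate 1. With the counts of both *foxd3* copies summed, the difference did not pass (adjusted p = 0.056, *edgeR*).

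*foxb1.L*, of the early neural plate, had 108 and 10 counts in the M/Z and 281 and 123 in the +/Z libraries at stage 10.5, and 21 and 15 counts in the M/Z and 30 and 12 in the +/Z libraries at stage 9. M/Z replicate 2 of stage 10.5 was the only library of that stage at the stage 9 level. The genotype difference of -2.25 ± 0.78 did not pass (adjusted p = 0.0871, *edgeR*), was -1.38 without that library, and was -4.71 without M/Z replicate 1. *foxb1.S* had 1.35 and 0 CPM in M/Z and 2.83 and 1.63 CPM in +/Z at stage 10.5, and 1.19 and 1.60 CPM in M/Z and 4.58 and 3.51 CPM in +/Z at stage 9. Its genotype differences of -1.70 at stage 10.5 (adjusted p = 0.269) and -1.53 at stage 9 (adjusted p = 0.329, *edgeR*) did not pass.

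*foxn4.S*, known for retinal progenitors and multiciliated cells, was the tested neural member with a genotype call at stage 9. It had 0.288 and 0.709 CPM in M/Z and 1.91 and 0.726 CPM in +/Z at stage 10.5, and 0.977 and 1.097 CPM in M/Z and 8.32 and 5.80 CPM in +/Z at stage 9. M/Z libraries were lower at both stages, with a log2 fold change of -2.76 ± 0.52 at stage 9 (adjusted p = 0.00816) and -1.42 ± 0.57 at stage 10.5 (adjusted p = 0.127, *edgeR*). The stage 9 call was lost without either M/Z library or +/Z replicate 1 of that stage, with -2.47 the value nearest to 0. *foxn4.L* overlapped between the genotypes, with 4.93 and 3.58 CPM in M/Z and 4.13 and 2.81 CPM in +/Z at stage 10.5, and 2.15 and 1.66 CPM in M/Z and 1.16 and 2.37 CPM in +/Z at stage 9.

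On a list of other neural ectoderm genes, such as *sox2* and *sox3*, 2 of 17 tested copies were lower and 0 higher in M/Z than in +/Z embryos at stage 10.5, and 4 were higher and 0 lower at stage 9.

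**Figure D4:**
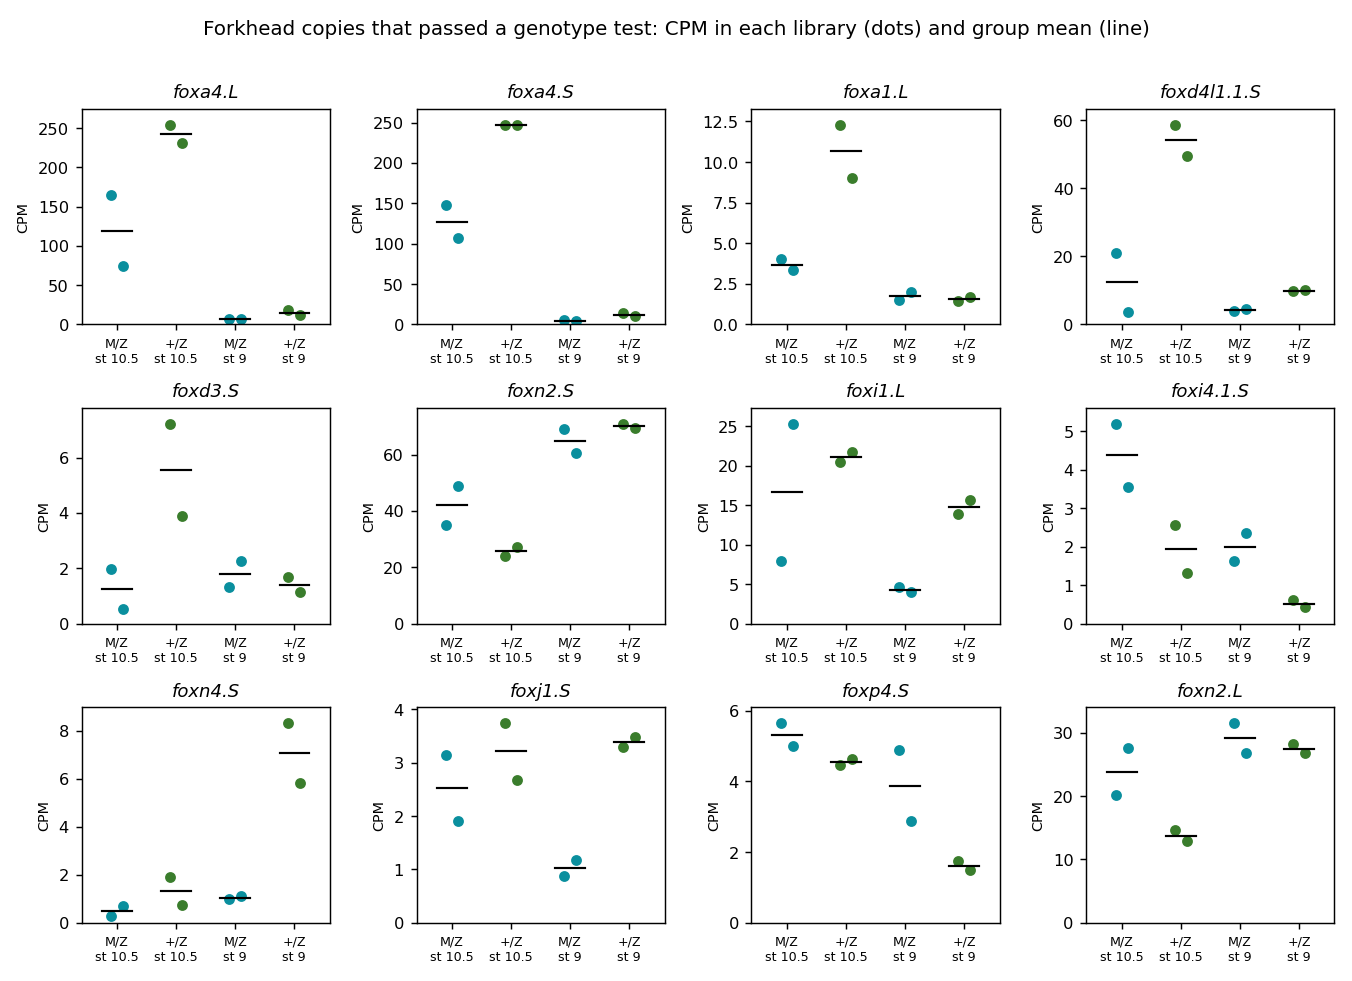
CPM in each library (dots) and the group mean (line) for 12 of the 15 forkhead copies that passed a genotype test, with stage 10.5 left of stage 9 and M/Z in teal left of +/Z in green. All CPM axes start at 0, and for *foxa4.S*, *foxa1.L* and *foxd4l1.1.S* both M/Z libraries of stage 10.5 lie below both +/Z libraries.

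Among the 14 mesodermal members, 10 were tested, and 1, *foxd2.L*, passed between genotypes. Over all genes, 13.1% were called at stage 10.5 and 11.9% at stage 9. *foxc1.S*, of paraxial mesoderm, had 19.6 and 6.19 CPM in M/Z and 32.1 and 25.5 CPM in +/Z at stage 10.5, and 1.60 and 1.60 CPM in M/Z and 1.77 and 0.725 CPM in +/Z at stage 9. It rose in both genotypes, and the stage 10.5 difference between them did not pass (-1.16 ± 0.49, adjusted p = 0.144, *edgeR*). The difference for *foxc1.S* was -0.54 without M/Z replicate 2 and -2.21 without M/Z replicate 1. *foxc2.L* had 565 and 200 counts in the M/Z and 694 and 343 in the +/Z libraries at stage 10.5, and 9 and 15 counts in the M/Z and 20 and 7 in the +/Z libraries at stage 9. The genotypes overlapped at both stages for *foxc2.L*. Its homeolog *foxc2.S* was lower in M/Z libraries at both stages, without overlap. Those differences, -1.53 at stage 10.5 (adjusted p = 0.109) and -1.19 at stage 9 (adjusted p = 0.240, *edgeR*), did not pass. *foxc1.L* was lower in M/Z libraries at stage 10.5, where -1.40 did not pass either (adjusted p = 0.0904, *edgeR*). The stage 10.5 difference of *foxc2.L* was -0.91, was -0.36 without M/Z replicate 2, and was -1.77 without M/Z replicate 1.

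*foxf1.L*, of lateral and splanchnic mesoderm, had 1.07 and 0.894 CPM in M/Z and 0.344 and 0.136 CPM in +/Z at stage 10.5, and 0.882 and 0.929 CPM in M/Z and 2.03 and 1.45 CPM in +/Z at stage 9. M/Z embryos were on the high side at stage 10.5 and on the low side at stage 9. The log2 differences, 1.98 ± 0.59 at stage 10.5 (adjusted p = 0.0522) and -0.94 ± 0.50 at stage 9 (adjusted p = 0.268, *edgeR*), did not pass.

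*foxd2.L* had 18 and 13 counts in the M/Z and 1 and 1 in the +/Z libraries at stage 10.5, and 44 and 49 counts in the M/Z and 15 and 17 in the +/Z libraries at stage 9. M/Z libraries were higher at both stages, and the *edgeR* call was made at stage 10.5 (3.35 ± 0.82 on the log2 scale, adjusted p = 0.028). From 31 counts in M/Z against 2 in +/Z, the depth-corrected ratio was 11.1, with an exact 95% interval of 2.83 to 96.0 that covers counting error only. The call did not survive leaving out any of the 8 libraries, and it was not made in *DESeq2* (adjusted p = 0.0544). With both *foxd2* copies summed it was made. *foxd2.S* had 10 and 25 counts in the M/Z and 1 and 0 in the +/Z libraries at stage 10.5, and its difference did not pass (adjusted p = 0.0624, *edgeR*).

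*foxj1* switches on the genes of motile cilia. *foxj1.S* had 3.14 and 1.91 CPM in M/Z and 3.74 and 2.68 CPM in +/Z at stage 10.5, and 0.882 and 1.18 CPM in M/Z and 3.29 and 3.47 CPM in +/Z at stage 9. The stage 9 groups were separate (log2 fold change -1.71 ± 0.39, adjusted p = 0.0203, *edgeR*) and the stage 10.5 groups overlapped (-0.35, adjusted p = 0.575). The call was lost without any 1 of the 4 stage 9 libraries, with values between -1.93 and -1.51. In M/Z embryos *foxj1.S* rose by stage 10.5 in *edgeR* (by 1.29 on the log2 scale, adjusted p = 0.0307), while the value in +/Z embryos was -0.07. That rise did not pass without M/Z replicate 1 of stage 10.5 (adjusted p = 0.205), and the stage 9 genotype call was lost with both *foxj1* copies summed (adjusted p = 0.0555, *edgeR*).

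*foxj1.L* rose in both genotypes, with log2 fold changes of 2.21 in M/Z (adjusted p = 0.011) and 2.26 in +/Z embryos (adjusted p = 0.006, *edgeR*). The M/Z value was 1.27 without M/Z replicate 1 of stage 10.5 and did not pass (adjusted p = 0.0985, *edgeR*). It had 5.22 and 1.85 CPM in M/Z and 6.38 and 4.67 CPM in +/Z at stage 10.5, and 0.763 and 0.760 CPM in M/Z and 1.45 and 0.840 CPM in +/Z at stage 9.

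The members grouped here as broad, several of them with roles in the cell cycle, metabolism and chromatin, were mostly present at stage 9. How broadly each is expressed was not tested. Of the 19 tested, 1 rose and 5 fell by stage 10.5 in M/Z embryos, and 3 rose and 10 fell in +/Z embryos. The background over all genes was 16.7% higher and 15.6% lower in M/Z, and 23.3% higher and 23.2% lower in +/Z embryos. *foxm1.S*, a driver of mitotic gene expression, had 103 and 104 CPM in M/Z and 102 and 94.8 CPM in +/Z at stage 10.5, and 106 and 91.4 CPM in M/Z and 95.7 and 95.4 CPM in +/Z at stage 9. Its 4 genotype and stage differences in *edgeR* lay between 0.04 and 0.08 on the log2 scale. *foxk2.L* had 67.4 and 61.0 CPM in M/Z and 63.6 and 65.1 CPM in +/Z at stage 10.5, and 107 and 99.1 CPM in M/Z and 90.5 and 91.2 CPM in +/Z at stage 9. It fell in both genotypes and showed no genotype call.

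Both copies of *foxn2* were higher in M/Z embryos at stage 10.5. *foxn2.L* had 20.2 and 27.6 CPM in M/Z and 14.6 and 12.9 CPM in +/Z at that stage, and 31.6 and 26.8 CPM in M/Z and 28.2 and 26.8 CPM in +/Z at stage 9. *foxn2.S* had 35.1 and 48.8 CPM in M/Z and 24.1 and 27.4 CPM in +/Z at stage 10.5, and 69.1 and 60.5 CPM in M/Z and 70.9 and 69.4 CPM in +/Z at stage 9. The stage 10.5 groups did not overlap for either copy, with M/Z replicate 2 the highest library.

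The stage 10.5 log2 fold changes were 0.79 ± 0.22 for *foxn2.L* (adjusted p = 0.0443) and 0.71 ± 0.20 for *foxn2.S* (adjusted p = 0.0462, *edgeR*). They were 0.56 (adjusted p = 0.207) and 0.46 (adjusted p = 0.226, *edgeR*) without M/Z replicate 2. Each of the other libraries except M/Z replicate 1 of stage 10.5 also ended both calls when left out, with values between 0.56 and 1.00 for *foxn2.L* and between 0.46 and 0.93 for *foxn2.S*. By stage 10.5 *foxn2.S* had fallen by 0.63 in M/Z and by 1.45 in +/Z embryos on the log2 scale, and *foxn2.L* by 0.29 in M/Z, which did not pass, and by 1.00 in +/Z embryos.

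*foxp4.S* was higher in M/Z embryos at stage 9, with a log2 fold change of 1.26 ± 0.34 (adjusted p = 0.0408, *edgeR*). It had 5.65 and 4.99 CPM in M/Z and 4.47 and 4.63 CPM in +/Z at stage 10.5, and 4.89 and 2.87 CPM in M/Z and 1.74 and 1.49 CPM in +/Z at stage 9. In +/Z embryos it rose by stage 10.5 (by 1.49 on the log2 scale, adjusted p = 0.00643, *edgeR*). The stage 9 call was lost without any 1 of the 4 stage 9 libraries, with values between 0.83 and 1.60 over all 8 libraries left out in turn.

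A pair of scarce members of the broad group was called from few counts. *foxp2.S* had 4 and 2 counts in the M/Z and 34 and 18 in the +/Z libraries at stage 10.5, and 1 and 4 counts in the M/Z and 0 and 2 in the +/Z libraries at stage 9, with a log2 fold change of -3.52 ± 1.00 at stage 10.5 (adjusted p = 0.0464, *edgeR*). That call was lost when any of the 8 libraries was left out, and when the *foxp2* copies were summed (adjusted p = 0.183, *edgeR*). *foxj2-b* had 6 and 4 counts in the M/Z and 16 and 27 in the +/Z libraries at stage 10.5, and 0 and 1 counts in the M/Z and 30 and 11 in the +/Z libraries at stage 9. Its stage 9 difference passed (adjusted p = 0.0132, *edgeR*), and from 1 count in M/Z against 41 in +/Z the ratio of +/Z to M/Z was 55.5, with an exact 95% interval of 9.42 to 2246. The call was lost without either M/Z library or +/Z replicate 1 of stage 9.

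*foxr1.L*, a gene known from oocytes and gonads, had 14.5 and 20.5 CPM in M/Z and 22.2 and 44.2 CPM in +/Z at stage 10.5, and 20.8 and 27.2 CPM in M/Z and 47.8 and 56.0 CPM in +/Z at stage 9. M/Z libraries were the lower ones at both stages, and the differences of -0.92 ± 0.32 at stage 10.5 (adjusted p = 0.0879) and -1.11 ± 0.32 at stage 9 (adjusted p = 0.051, *edgeR*) did not pass. It did not pass the stage test in either genotype. Of 4 germ plasm markers, 1 was higher and 1 lower in M/Z than in +/Z embryos at stage 10.5, and 0 were higher and 1 lower at stage 9.

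Read by timing class, the median genotype difference at stage 10.5 was 0.58 on the log2 scale over the 14 falling members, with 10 above 0 and 4 below, against 0.48 over all genes of that class. Over the 14 rising members it was -0.99, with 5 above 0 and 9 below, against -0.39 over all genes of the class. Over the 5 induced members it was -0.91, with 1 above 0 and 4 below, against -0.26 over all genes of the class. The held members had a median of -0.16, and all held genes one of -0.01. None of the falling or induced members passed the genotype test at stage 10.5, and 4 of the rising ones did, all lower in M/Z embryos. Over all genes of each class, 16.6% of falling, 9.08% of induced and 13.2% of rising genes were called at that stage, and 12.4% of rising genes were lower.

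The M/Z libraries of stage 10.5 differed in how far they had moved from stage 9. With classes set from the 4 +/Z libraries alone, M/Z replicate 2 lay above both +/Z libraries for 12 of 15 tested falling members and below both for 12 of 14 rising ones. Replicate 1 lay above both for 3 of the 15 and below both for 10 of the 14. Over all genes of these classes, the shares were 79.3% of falling and 77.8% of rising genes for replicate 2, and 43.7% of falling and 51.0% of rising genes for replicate 1. Since +/Z values set the classes, a displacement of M/Z libraries towards stage 9 is partly fixed by that choice, and it is given as a description. Replicate 2 was higher than replicate 1 for 14 of the 15 falling members, with a median log2 ratio of 0.543. Over all falling genes the median was much the same, at 0.565. For all 14 rising members replicate 2 was lower than replicate 1, with a median log2 ratio of -1.22, against -0.43 over all rising genes. The same ratio between the +/Z replicates was -0.40 for these members and 0.03 over all rising genes.

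Of the 28 homeolog pairs, the 22 with both copies tested were compared by the share of a pair's counts on the .L copy, from which library size cancels. In 16 of the 28 pairs both copies fell in 1 timing class, and in 12 they differed. Among the 16 were *foxd1*, *foxd2*, *foxp2* and *foxq1*, low in both copies. The share over all pairs is not given, so these counts cannot be read as particular to forkhead genes. The log2 ratio of .L to .S counts was tested with *limma* over the 4568 pairs of the table with both copies tested, 22 of them forkhead pairs. Between stage 10.5 and stage 9, over both genotypes, 12 of the 22 forkhead pairs changed their ratio, against a background of 45.5%. Between genotypes, 0 of 22 passed at stage 10.5 (background 21.1%) and 1 of 22 passed at stage 9 (background 21.6%). At stage 10.5, 3 pairs had an unadjusted p under 0.05, and *limma* without a trend in the variance called 0. Without M/Z replicate 1 or +/Z replicate 1 of stage 10.5, 3 pairs passed at that stage.

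In *foxc2*, *foxb1*, *foxn4*, *foxi4.1*, *foxj1* and *foxn2* the ratio moved to the .L copy. The log2 ratio change was 1.57 for *foxj1* (adjusted p = 0.00859) and 0.40 for *foxn2* (adjusted p = 0.0219, *limma*). In *foxn4* the mean over the 4 libraries of a stage was 3.86 CPM at stage 10.5 and 1.83 CPM at stage 9 for .L, and 0.908 CPM at stage 10.5 and 4.05 CPM at stage 9 for .S. The .L share of *foxb1* was 69.7% and 100% in M/Z and 79.2% and 77.4% in +/Z at stage 10.5, and 29.6% and 20.8% in M/Z and 17.4% and 11.5% in +/Z at stage 9. Its *limma* log2 ratio change was 4.37 ± 0.69 (adjusted p = 0.0011), with 10 counts in all behind the value of 100%. *foxi2* kept more of its .L copy as both fell, with a .L share of 79.1% and 71.2% in M/Z and 77.2% and 76.4% in +/Z at stage 10.5, and 52.7% and 53.5% in M/Z and 58.6% and 55.9% in +/Z at stage 9 (ratio change 1.37 ± 0.14, adjusted p = 0.000144, *limma*).

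In *foxc1*, *foxi4.2*, *foxm1*, *foxd4l1.1* and *foxa4* the ratio moved to the .S copy. The .L share of *foxc1* was 9.09% and 17.6% in M/Z and 16.8% and 8.03% in +/Z at stage 10.5, and 47.2% and 46.2% in M/Z and 45.0% and 64.8% in +/Z at stage 9 (ratio change -2.88 ± 0.43, adjusted p = 0.000899, *limma*). For *foxi4.2* the .L share was 28.4% and 38.9% in M/Z and 29.3% and 28.4% in +/Z at stage 10.5, and 46.7% and 46.4% in M/Z and 48.3% and 53.3% in +/Z at stage 9 (ratio change -1.07 ± 0.14, adjusted p = 0.000473, *limma*). The closely related *foxc1* and *foxc2* thus shifted to opposite copies, *foxc1* to .S and *foxc2* to .L, whose ratio change was 4.64 ± 0.48 (adjusted p = 0.000157, *limma*).

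*foxn4* was the pair whose ratio differed between genotypes. Its .L share was 94.5% and 83.5% in M/Z and 68.4% and 79.5% in +/Z at stage 10.5, and 68.7% and 60.2% in M/Z and 12.2% and 29.0% in +/Z at stage 9. The .L share was higher in M/Z libraries at both stages, without overlap. The *limma* log2 ratio change of M/Z over +/Z was 2.91 ± 0.76 at stage 9 (adjusted p = 0.0262) and 1.66 ± 0.76 at stage 10.5 (adjusted p = 0.157). The stage 9 call was lost in *limma* without a trend in the variance, and when either M/Z library or +/Z replicate 1 of that stage was left out.

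**Figure D5:**
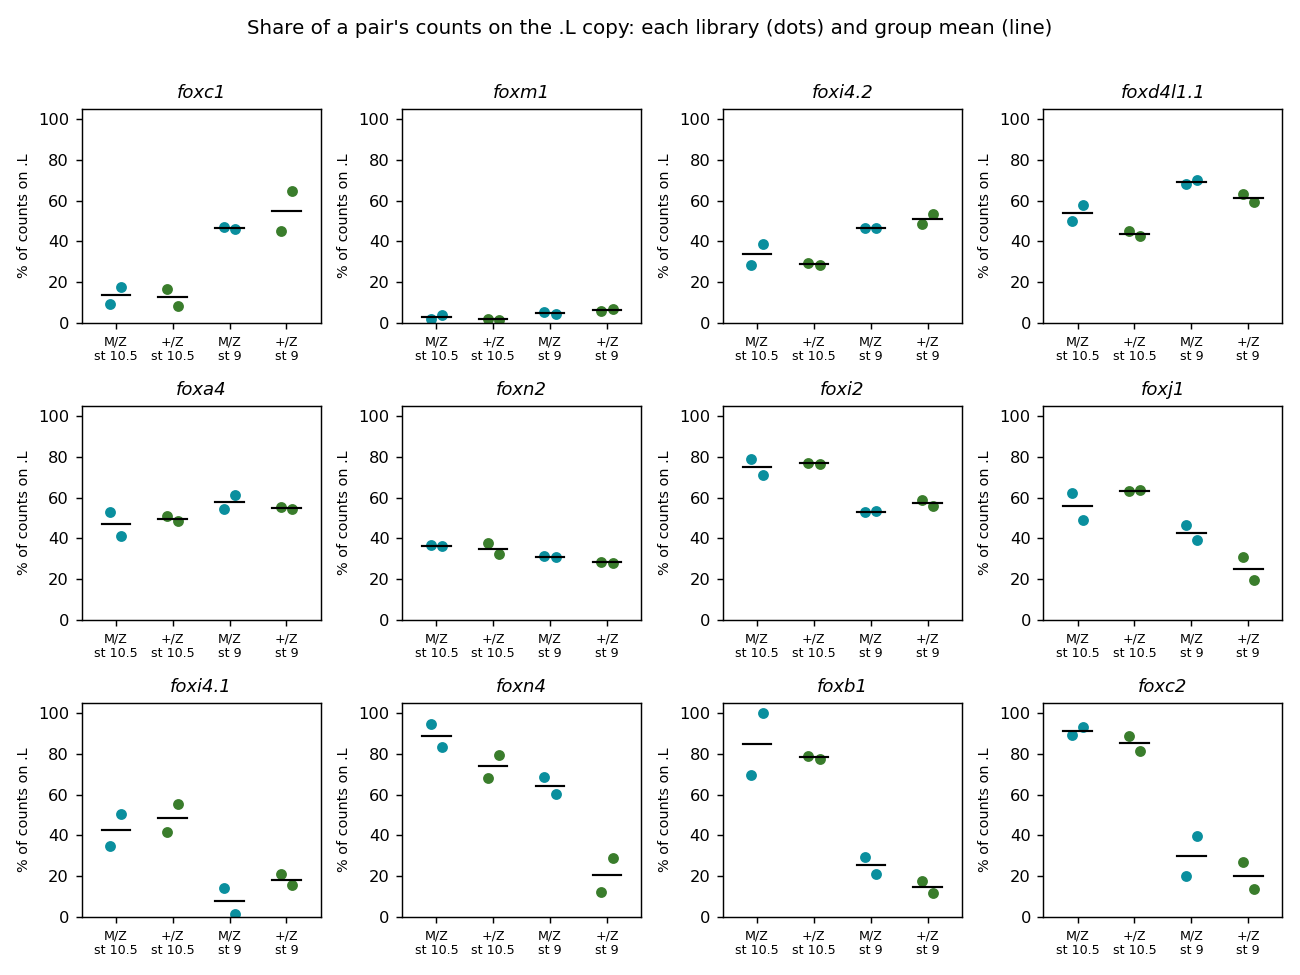
Percent of a pair's counts on the .L copy in each library (dots) and the group mean (line) for the 12 forkhead pairs whose ratio changed between stages, with stage 10.5 left of stage 9 and M/Z in teal left of +/Z in green. *foxc1* is lower and *foxb1* and *foxc2* are higher on .L at stage 10.5, and *foxn4* is higher on .L in M/Z than in +/Z libraries at both stages.

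In the other 10 tested forkhead pairs no change of the ratio passed. *foxn3* kept between 79.3% and 89.5% of its counts on .L, and *foxk2* between 60.2% and 69.1%. *foxh1* had a .L share of 78.1% and 83.4% in M/Z and 74.4% and 47.7% in +/Z at stage 10.5, where +/Z replicate 2 was the low library. That genotype difference did not pass (ratio change 1.37 ± 0.44, adjusted p = 0.0604, *limma*).

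Of the 21 members low at both stages, 13 were untested. Among these, *foxd1.S* had 39 counts in M/Z replicate 2 of stage 10.5 and 8 or fewer in every other library. *foxb2.S* had 0 counts in all 4 libraries of stage 10.5, and 7 and 7 counts in the M/Z and 9 and 11 in the +/Z libraries at stage 9. The other 11, *foxd4l1.L*, *foxe1.S*, *foxe3.L*, *foxj1.2.S*, *foxj2.L*, *foxl2.S*, *foxo6.L*, *foxp2.L*, *foxp3.L*, *foxq1.L* and *foxq1.S*, had 16 or fewer counts in every library. A count of 0 allows up to 3 counts for counting error alone. On library totals without TMM factors, unlike the other CPM values here, that is between 0.0805 and 0.121 CPM by library.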

How the data were processed

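M/Z and +/Z embryos were sequenced at stages 10.5 and 9, in 2 pools of 3 embryos per group (8 libraries), as paired-end stranded mRNA libraries. The authors processed the reads with the CSBB pipeline, version 3.0, in which *bowtie2* mapped them to the *X. laevis* genome (version 9.2), and deposited expected counts per gene from *RSEM* (version 1.3.0 per the submitters' processing notes). The strand setting is not given in the sources used here. All deposited values were whole numbers, not normalised for library size, and no molecular identifiers are named, so intervals cover counting error only.

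Groups were taken from the labels. Counts were tested with *edgeR* 4.0.16 (R 4.3.3): TMM normalisation, filterByExpr, and 1 quasi-likelihood fit (glmQLFit, glmQLFTest) of the 4 groups, which share 1 estimate of the spread, with Benjamini-Hochberg adjustment over all genes tested and a threshold of 0.05. CPM used TMM-scaled totals. Log2((L + 0.5)/(S + 0.5)) of each pair was tested with *limma* 3.58.1 (eBayes with trend). No exact test between 2 and 2 libraries can pass 0.05, so none was run. Scripts were tested on simulated data.

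Copies with values in every library are those passing a genotype test, the 5 highest at stage 9, the 5 highest induced ones and both copies of pairs passing a genotype ratio test. Other copies shown per library were chosen after their values were seen. Members and gene lists were chosen with earlier results of these data known. Alternatives were other size factors, library totals, *DESeq2* 1.42.0, no filter on low counts, a minimum of 10 counts per library, a replicate block, 1 stage or genotype alone, summed homeologs, other pseudocounts and class limits, and leaving out each library. No sequences or coordinates were analysed here, and some members are counted but not reported by name here.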

Additional observations from a re-analysis of the deposited data

How the results depend on the processing

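Each group had 2 libraries, which differed by more than counting noise (chi-square per degree of freedom between 15.4 and 51.4 over genes tested), and members under about 10 counts per library are imprecise. RLE size factors left all 5 counts of called members as they were. No share over all genes is given for the alternatives, so changes in their counts cannot be read as particular to forkhead genes. Without a filter on low counts, 31 members passed between genotypes at stage 10.5, 13 at stage 9 and 9 in the difference between the stages. *DESeq2* called 16 at stage 10.5, without *foxd2.L* (adjusted p = 0.0544) and *foxd4l1.1.S* (adjusted p = 0.0504) of the 8 called in *edgeR*. Fitting only the 4 libraries of a stage gave 1 at stage 10.5 and 21 at stage 9. With homeologs summed (46 genes, 39 tested), 4 passed at stage 10.5 (*foxa4*, *foxd2*, *foxd4l1.1* and *foxn2*), 24 in the stage test in +/Z and 17 in M/Z embryos. In the homeolog ratio between genotypes at stage 9, *limma* without trend called 0. With a class limit of 2 CPM, 6 members were rising and 14 induced. By the class definition, rising members with a stage 9 mean under 2 CPM then counted as induced. Why the counts of called members moved was not tested. With library totals the median of all genes moved by 0.20 at stage 10.5, by -0.30 between stages in +/Z and by -0.20 in M/Z embryos.

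Leaving out each library gave 2 to 23 members called at stage 10.5, 0 to 12 at stage 9, 0 to 13 in the difference between stages, 25 to 44 by stage in +/Z and 14 to 36 in M/Z embryos, and, of pairs, 0 to 3 between genotypes at stage 10.5, 0 to 1 at stage 9 and 10 to 12 by stage.

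No call between genotypes or stages, of a member or a homeolog ratio, changed direction under an alternative that gave it a value. Differences that had not passed did. *foxk2.L* at stage 10.5 (log2 -0.0037) was 0.19 with library totals, 0.0175 without a filter, 0.0012 with at least 10 counts and 0.0183 with that stage alone, and -0.0706 to 0.078 with libraries left out. With libraries left out, *foxi1.L* at stage 10.5 ranged from -1.39 to 0.27. At stage 9 the ranges were -0.0338 to 0.37 for *foxa1.L*, -1.06 to 0.02 for *foxb1.L*, -1.098 to 0.23 for *foxc2.L*, -0.0814 to 0.67 for *foxd3.S*, -1.95 to 1.09 for *foxi4.1.L*, -0.0603 to 0.15 for *foxm1.S*, -0.0351 to 0.20 for *foxn2.L*, -0.31 to 0.71 for *foxn4.L* and -0.51 to 4.17 for *foxp2.S*.

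The labels do not say whether replicate numbers pair the libraries. The correlation of same-numbered deviations between genotypes was -0.0089 at stage 10.5 and -0.015 at stage 9. Between groups of different stages it lay between -0.132 and 0.173. Low correlations cannot exclude shared clutches or batches. With the replicate block, 11 members passed at stage 10.5 (1 higher, 10 lower, against 3 and 5 without it), 10 at stage 9, 0 in the difference between stages, 40 by stage in +/Z and 26 in M/Z embryos.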
